A study of Mus musculus with 4 samples.

Results

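Solute carriers are membrane proteins that move small molecules such as amino acids, sugars, metal ions, vitamins and mitochondrial metabolites across cell and organelle membranes. The genes described here carry a symbol made of Slc, a family number, the letter a and a member number, without the iron exporter Slc40a1 and the phagosomal metal transporter Slc11a1. There were 236 such genes among the 12393 on the array, measured by 375 of the 20380 probe sets that name exactly 1 gene, and they belong to 47 numbered families. Their RNA was measured in 4 populations of myeloid cells sorted from large-intestinal lamina propria, the layer of connective tissue that lies beneath the gut epithelium, in C57BL/6J mice. The CX3CR1high macrophages were CD11c+ CD11b+ with a high level of the chemokine receptor CX3CR1, and the CX3CR1- cells were CD11c+ CD11b+ without it. The CD11b+ cells were CD11c- CD11b+, and the dendritic cells (DCs) were CD11chigh CD11b-. The labels name no treatment, mutation, age or sex, and do not say how many mice went into a sample. Each population was read on 1 Affymetrix 3' array, so there are no replicates, no test can be made, and every difference below is a difference between 4 arrays.

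Values are linear signal intensities that the authors made with MAS5. The floor used here is the median signal of all non-control probe sets, 103, and a signal under it was set to the floor before a ratio was taken. Where just 1 of 2 signals lies under the floor, the ratio bounds the difference from below and is given as at least N-fold, and a gene under the floor on both sides has no ratio. A gene is called higher or lower from 2-fold on. The only spread at hand is that between the log2 ratios which different probe sets give for 1 gene, with an SD over all genes of 0.33 in the comparison with CD11b+ cells, 0.39 with DCs and 0.42 with CX3CR1- cells, and of 0.24, 0.37 and 0.37 over the solute carriers. It leaves out differences between mice, sorts and hybridisations.

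In myeloid cells, solute carriers set which nutrients a cell takes up and what its organelles exchange with the cytosol. Carnitine carriers bring fatty acids to the mitochondria, cystine and large neutral amino acids enter through light chains that pair with the shared heavy chain Slc3a2, and lysosomal carriers release the products of digested cargo. Zinc, copper and iron carriers load or empty the cytosol of metals that microbes also need. Macrophages are known for the last of these roles, since they take up dying cells and recycle what these hold.

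The stretches before the transcription starts of 5 members that the results turn on are printed here, from RefSeq with build GRCm38.p6, 5′ to 3′ on the strand of the gene, each being the 250 bases before the start. Slc25a20 and Slc25a38 had their highest signal in the DCs, Slc37a2 in the CX3CR1high macrophages and Slc7a11 in the CX3CR1- cells, and Slc30a1 was higher in the CX3CR1high macrophages and the CD11b+ cells than in both others. They lie at chr9:108661886-108662135 on the plus strand, chr9:120110132-120110381 on the plus strand, chr9:37255739-37255988 on the minus strand, chr3:50443614-50443863 on the minus strand and chr1:191906531-191906780 on the plus strand. Capitals mark matches, on either strand, to 7 motifs chosen with the roles of these genes in mind.
Slc25a20: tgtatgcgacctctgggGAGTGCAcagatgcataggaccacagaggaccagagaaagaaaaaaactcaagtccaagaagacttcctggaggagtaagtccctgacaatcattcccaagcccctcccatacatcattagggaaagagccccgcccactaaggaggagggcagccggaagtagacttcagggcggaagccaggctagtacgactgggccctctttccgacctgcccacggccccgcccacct
Slc25a38: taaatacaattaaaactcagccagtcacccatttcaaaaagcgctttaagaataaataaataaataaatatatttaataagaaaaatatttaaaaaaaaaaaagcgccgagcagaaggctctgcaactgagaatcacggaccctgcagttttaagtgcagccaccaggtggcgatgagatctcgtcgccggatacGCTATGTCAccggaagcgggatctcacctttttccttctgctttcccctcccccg
Slc37a2: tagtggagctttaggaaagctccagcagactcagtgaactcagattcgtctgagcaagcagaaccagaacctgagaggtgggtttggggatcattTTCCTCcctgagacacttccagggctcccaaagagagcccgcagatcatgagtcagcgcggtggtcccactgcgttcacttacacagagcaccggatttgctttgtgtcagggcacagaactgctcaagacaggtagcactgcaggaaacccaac
Slc7a11: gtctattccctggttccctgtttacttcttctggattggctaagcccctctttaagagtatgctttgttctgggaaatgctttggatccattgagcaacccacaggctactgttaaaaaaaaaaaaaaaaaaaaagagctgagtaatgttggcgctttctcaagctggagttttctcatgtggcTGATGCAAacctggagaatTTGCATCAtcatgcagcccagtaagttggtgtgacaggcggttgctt
Slc30a1: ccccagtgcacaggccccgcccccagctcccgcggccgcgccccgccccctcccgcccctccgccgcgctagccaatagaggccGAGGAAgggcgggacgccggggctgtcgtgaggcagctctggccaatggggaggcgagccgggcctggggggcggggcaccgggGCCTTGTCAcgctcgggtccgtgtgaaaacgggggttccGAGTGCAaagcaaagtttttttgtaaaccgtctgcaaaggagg

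The motifs were the antioxidant response element TGACNNNGC, the amino acid response element TGATGNAA, the E-box CACGTG, the PU box GAGGAA, the nuclear receptor site AGGTCA, and the metal response element as TGCACNC or TGCGCNC. Of all 32851 windows of this length in the promoter table they occurred in 10.2%, 3.45%, 6.02%, 23.3%, 14%, 10.4% and 12.5%, in that order. Of the 245 windows of the 182 members with an entry they occurred in 14.3%, 2.45%, 10.6%, 17.6%, 13.5%, 11.8% and 15.9%. Slc7a11 held the amino acid response element at 2 places, 66 to 59 and 47 to 40 bases before the start, in opposite directions. Slc30a1, the zinc exporter, held a metal response element 43 to 37 bases before the start, an antioxidant response element and a PU box. Slc37a2 held a PU box, Slc25a38 an antioxidant response element and Slc25a20 a metal response element. A match is a run of letters and says nothing here about binding, and a window without one says nothing about the factor.

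Of the 236 solute carrier genes, 126 reached the floor in at least 1 population (53.4%, against 63.3% of all genes), 91 reached it in all 4, and 110 reached it in none. On the CX3CR1high array 116 members reached it (49.2%, against 57.2% of all genes), on the CD11b+ array 108 (45.8%, against 56.9%), on the DC array 99 (41.9%, against 52.7%) and on the CX3CR1- array 101 (42.8%, against 55.8%). A lower detected share than that of all genes was thus seen on each array. Among the 110 were Slc7a2, a carrier of arginine, the glutamate carrier Slc1a3 and the red cell anion exchanger Slc4a1. Their highest signals by the probe set used were 20.1, 25.1 and 25.6. Further sets of Slc7a2 and Slc4a1 reached 52.5 and 35.6, also under the floor. For these genes no order of populations can be read.

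Over the CD11b+ cells, the CX3CR1high macrophages were at least 2-fold higher for 8 of 122 members with a ratio (6.56%, against 4.66% of all genes) and at least 2-fold lower for 5 (4.1%, against 5.83%). Over the DCs they were higher for 29 of 121 members (24%, against 17.4%) and lower for 10 (8.26%, against 10.2%). Over the CX3CR1- cells they were higher for 16 of 120 members (13.3%, against 8.56%) and lower for 6 (5%, against 6.54%). With the floor at the 75th percentile these became 3 higher and 4 lower of 55, beside 7.05% and 6.38% of all genes. The median log2 ratio of the members was 0.10, 0.41 and 0.21 in these comparisons, beside -0.02, 0.02 and 0.02 for all genes. The 3 comparisons share the CX3CR1high array. With the 4 arrays set to equal medians, the median over the DCs became -0.27 for all genes and 0.15 for the members. The members called over the DCs were then 20 higher and 13 lower of 123, beside 13.3% and 18.3% of all genes. Of the member calls 60.6% were higher in place of 74.4%, and of the calls among all genes 42.1% in place of 63.1%.

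Counted against all 3 other populations at once, 6 of 126 members were at least 2-fold above in the CX3CR1high macrophages (4.76%, against 2.93% of all genes), 7 in the DCs (5.56%, against 4.13%), 1 in the CX3CR1- cells (0.794%, against 0.561%) and 0 in the CD11b+ cells (against 2.17%). In the other direction 9 members were at least 2-fold below all others in the DCs (7.14%, against 8.03%) and 1 in the CX3CR1- cells (0.794%, against 0.242%). For CX3CR1high macrophages and for CD11b+ cells the number below was 0, against 0.841% and 0.268% of all genes. These shares lie near those of all genes, and the rest of the text is about which members they are.

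**Figure D1:**
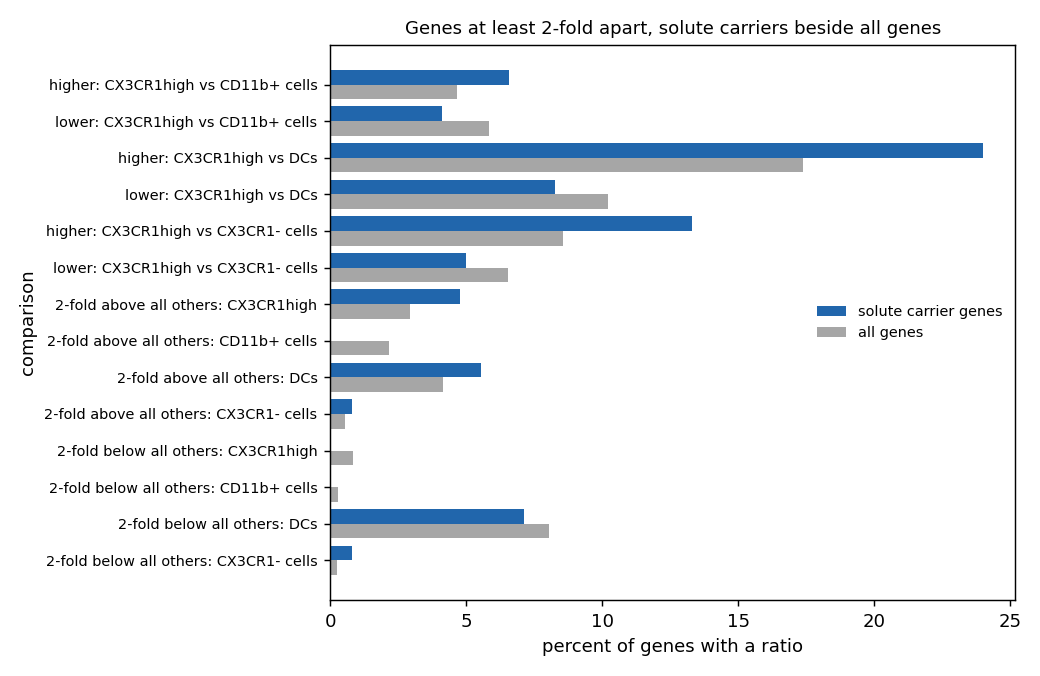
Percent of genes at least 2-fold apart on the x axis for each comparison on the y axis, with a blue bar for the solute carrier genes and a grey bar for all genes with a ratio, from 1 array per population. The blue bar is the longer in the rows for genes higher in the CX3CR1high macrophages, with 24% against 17.4% over the DCs.

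RNA quality and other cells differed between the arrays. The ratio of 3' to 5' control signals, which grows with RNA breakdown, was 1.08, 2.17, 0.791 and 3.40 with the Gapdh probes, listed for CX3CR1high, CD11b+, DC and CX3CR1- arrays. With the Actb probes it was 1.68, 3.18, 1.11 and 2.76. Every run of 4 values below is in this array order. Summed over 11 epithelial genes, signals were 17773, 3094, 4511 and 7447 in that order, and over 9 fibroblast and endothelial genes 16067, 61678, 5128 and 21724. The 6 neutrophil genes summed to 2073, 9022, 232 and 559, and the 4 eosinophil genes to 147, 392, 93.5 and 798. The 4 B and plasma cell genes summed to 18853, 34689, 10285 and 10584, mostly from Jchain. Of 6 T, NK and innate lymphoid genes just Il7r reached the floor, at 2636, 1737, 1168 and 7311. The part of these cells in the members' values was not tested. The 9 macrophage genes summed to 141145, 76850.1, 8985 and 60831, and the 6 DC genes to 2658, 2425, 22996 and 18452. All 9 macrophage genes reached the floor in each CD11b+ population and 5 did in the DCs, while all 6 DC genes reached it in the DCs, 5 on the CX3CR1- array, 3 on the CX3CR1high array and 2 on the CD11b+ array. In bulk RNA such as this, fewer cells of a type and less RNA per cell cannot be told apart.

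**Figure D2:**
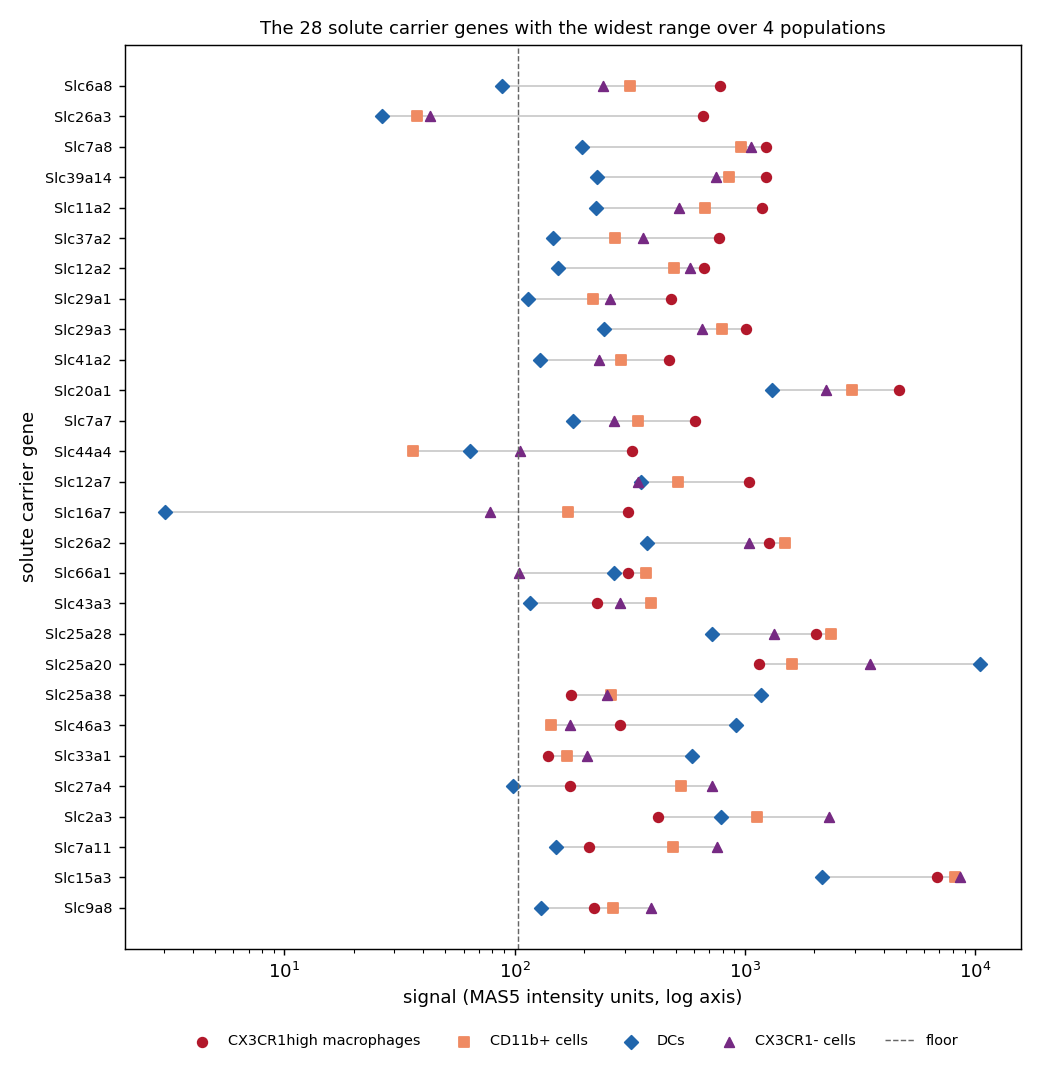
Signal on a log x axis, in MAS5 intensity units, of the 28 members with the widest range over the 4 populations, 1 row per gene on the y axis and 1 marker per array, with the floor of 103 dashed. Of these genes 15 had their highest signal on the CX3CR1high array, 4 on the CD11b+ array, 4 on the DC array and 5 on the CX3CR1- array.

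The carnitine carriers had their highest signals in the DCs. Carnitine enters cells through the plasma membrane carrier Slc22a5 and its relative Slc22a21, and Slc25a20 then moves acylcarnitines into the mitochondrial matrix in exchange for free carnitine, the step before fatty acid oxidation. Slc25a20 had signals of 1157 for CX3CR1high macrophages, 1608 for CD11b+ cells, 10477 for DCs and 3494 for CX3CR1- cells. The DCs stood 9.06-fold above the CX3CR1high macrophages, 6.52-fold above the CD11b+ cells and 3.0-fold above the CX3CR1- cells, the widest range of any member that was measured in all 4 populations. A further probe set of Slc25a20 gave 448, 528, 4323 and 833 in the order of the arrays above, which is the same order of populations.

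Slc22a5 was at 353 for CX3CR1high macrophages, 434 for CD11b+ cells, 882 for DCs and 384 for CX3CR1- cells. The DCs alone were high, and the 3 CD11b+ populations lay close together. Slc22a21 reached the floor in the DCs only, with 6.26, 27.1, 266 and 54.9 in the same order, and was there at least 2.59-fold above each of the others. Slc22a4, which carries ergothioneine, was under the floor in all 4, with a highest signal of 91.8. The 3 genes follow each other on chromosome 11 with no other coding gene between them in RefSeq, and Slc22a21 and Slc22a5 are close relatives, so that reads of one by the probes of the other were not tested.

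Fatty acid carriers of the Slc27 family had another order. Slc27a4, which takes up long-chain fatty acids and activates them with coenzyme A, had 174 for CX3CR1high macrophages, 529 for CD11b+ cells, 98.2 for DCs and 717 for CX3CR1- cells. It was 4.13-fold lower among CX3CR1high macrophages than in the CX3CR1- cells and 3.04-fold lower than in the CD11b+ cells, and the DCs were under the floor. Slc27a1 of the same family reached the floor only in the CX3CR1high macrophages (178), within 2-fold of it. Of the 7 members of the lipid, bile acid and choline group that reached the floor, 1 was higher and 2 lower over the CD11b+ cells, 2 higher and 1 lower over the DCs, and 1 higher and 1 lower over the CX3CR1- cells. The shares of all genes were 4.66% and 5.83%, 17.4% and 10.2%, and 8.56% and 6.54% in that order. The choline carrier Slc44a1 was 2.14-fold above the DCs (1411 against 659), which is under 2-fold with equal medians. A further set of Slc44a1 gave 231 against 42.1. Slc44a2, a mitochondrial and surface choline carrier, was 2.46-fold lower among CX3CR1high macrophages than in the CD11b+ cells and 2.09-fold lower than in the DCs. A further probe set gave 553, 1691, 1102 and 1532 in array order, 3.06-fold lower than in the CD11b+ cells and 1.99-fold lower than in the DCs. Averaged over its 3 probe sets, its log2 ratios were -0.82 and -0.45, under 2-fold. The last of these sets was under the floor on every array, with 45.1, 33, 27.4 and 52.6.

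Other mitochondrial carriers split in both directions between the DCs and the rest. Of the 33 genes of the Slc25 family 24 reached the floor. Against the CD11b+ cells, 0 of 23 with a ratio were apart in either direction (of all genes, 4.66% were higher and 5.83% lower). Against the DCs 3 of 24 were higher and 3 lower (12.5% each, against 17.4% and 10.2% of all genes). Against the CX3CR1- cells 0 of 23 were higher and 1 lower (0% and 4.35%, against 8.56% and 6.54%). Slc25a38, which brings glycine into mitochondria for the first step of heme synthesis, was at 175 for CX3CR1high macrophages, 263 for CD11b+ cells, 1174 for DCs and 251 for CX3CR1- cells. The DCs were 6.72-fold above the CX3CR1high macrophages and 4.68-fold above the CX3CR1- cells. Erythroid RNA was under the floor on all arrays, with Hba-a1 at 14.7, 36, 3.26 and 2.18 and Alas2 at 15.8, 26.6, 5.18 and 3.53. Of a list of 4 erythroid transport genes 3 were on the array, and of the 2 at the floor 0 were higher and 1, Slc25a38, lower than in the DCs, with 0 apart from CD11b+ or from CX3CR1- cells.

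Adenine nucleotide carriers, which exchange ATP for ADP, followed the same pattern more weakly. Slc25a4 had 1277 for CX3CR1high macrophages, 989 for CD11b+ cells, 2934 for DCs and 1443 for CX3CR1- cells, and its DC signal was 2.30-fold that of the CX3CR1high macrophages. Both further probe sets that reached the floor put the DCs first, with 1166, 1167, 2629 and 1022 and 1098, 1006, 2392 and 748, and the mean over all its probe sets gave a log2 ratio of -0.95, just under 2-fold. By the probe set used, Slc25a5 was at 4852 for CX3CR1high macrophages, 2586 for CD11b+ cells, 7504 for DCs and 3632 for CX3CR1- cells, within 2-fold between the CX3CR1high macrophages and the DCs. Of its 8 probe sets the one used ends in _a_at, and all but 1 of the others end in _x_at, a type that can match related sequences. The sets with these endings all stayed within 2-fold between the CX3CR1high macrophages and the DCs. The 1 other set gave 509, 249, 1086 and 343 in array order, with the DCs 2.14-fold above the CX3CR1high macrophages. The phosphate carrier Slc25a3 was alike on all arrays, at 12926, 11710.5, 12609 and 13201.

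The mitochondrial iron importers ran the other way. Slc25a28 (mitoferrin 2) had 2031 for CX3CR1high macrophages, 2370.3 for CD11b+ cells, 720.1 for DCs and 1335 for CX3CR1- cells, 2.82-fold above the DCs. Slc25a37 (mitoferrin 1) had 254, 243, 126 and 317 in the same order and was 2.01-fold above the DCs, a call lost with equal medians (log2 ratio 0.70). The ornithine carrier Slc25a15 was at least 2.44-fold above the DCs. Each of these was within 2-fold between the CX3CR1high macrophages and the CD11b+ cells.

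**Figure D3:**
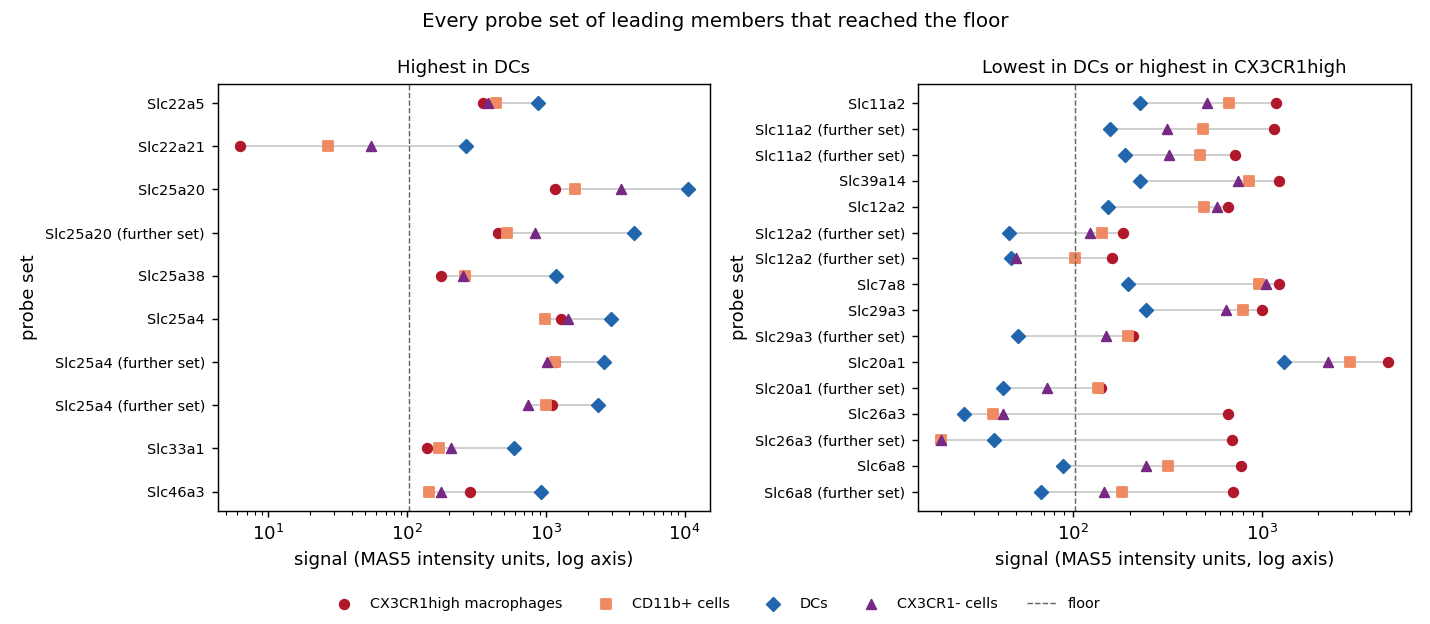
Signal on a log x axis, in MAS5 intensity units, for each probe set (y axis) that reached the floor of leading members that were highest in the DCs (left) and lowest in the DCs or highest in the CX3CR1high macrophages (right), with 1 marker per array and the floor dashed. The DC marker is the rightmost in every row on the left and lies left of the CX3CR1high marker in every row on the right.

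Further members highest in the DCs carried cargo of the endoplasmic reticulum, the lysosome and vitamins. Slc33a1, which brings acetyl-CoA into the endoplasmic reticulum, was at 139 for CX3CR1high macrophages, 169 for CD11b+ cells, 591 for DCs and 206 for CX3CR1- cells, and was 4.25-fold lower in the CX3CR1high macrophages. Slc46a3, a lysosomal carrier, was at 286 for CX3CR1high macrophages, 144 for CD11b+ cells, 917 for DCs and 175 for CX3CR1- cells. The DCs exceeded the CX3CR1high macrophages 3.21-fold and the CX3CR1- cells 5.25-fold. Slc52a3, a riboflavin carrier, was 2.20-fold lower among CX3CR1high macrophages than in the DCs (133 against 292), with 235 in the CX3CR1- cells. Among the vitamin and organic ion carriers, 10 of 36 genes reached the floor, and 0 of 8 were apart in either direction over the CD11b+ or the CX3CR1- cells. The shares of all genes higher and lower there were 4.66% and 5.83%, and 8.56% and 6.54%. Over the DCs 2 were higher and 4 lower in the CX3CR1high macrophages (20% and 40%, against 17.4% and 10.2% of all genes). The 2 higher ones were the ascorbate carrier Slc23a2 (2.09-fold, 967 against 462) and the reduced folate carrier Slc19a1 (2.07-fold). Equal medians lower every measured ratio over the DCs by the same factor, and Slc3a2, at 2.26-fold, fell to a log2 ratio of 0.87. The ratios of Slc23a2 and Slc19a1 are smaller and so also fall under 2-fold. A further probe set of Slc19a1 gave 116 for CX3CR1high macrophages and 66 for DCs.

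Metal carriers were higher among CX3CR1high macrophages than in the DCs for 4 of 21 members with a ratio (19%, near the 17.4% of all genes) and lower for 0, with a median log2 ratio of 0.34. Slc11a2, which carries ferrous iron out of endosomes, was at 1191 for CX3CR1high macrophages, 670.2 for CD11b+ cells, 226 for DCs and 516 for CX3CR1- cells. The CX3CR1high macrophages were 5.28-fold above the DCs and 2.31-fold above the CX3CR1- cells. Its further probe sets gave 1167, 492, 158 and 315 and 723, 474, 190.1 and 323 in the same order, and all 3 sets rank the 4 arrays alike. Slc39a14, a carrier of zinc and of iron not bound to transferrin, was at 1234 for CX3CR1high macrophages, 855 for CD11b+ cells, 228 for DCs and 749 for CX3CR1- cells, which is 5.41-fold above the DCs.

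Slc30a1, the zinc exporter of the plasma membrane, split the populations in another way. Its signals were 493 for CX3CR1high macrophages, 458 for CD11b+ cells, 221 for DCs and 185 for CX3CR1- cells. The CX3CR1high macrophages were 2.66-fold above the CX3CR1- cells and 2.23-fold above the DCs, the last of which is under 2-fold with equal medians (log2 ratio 0.85). The vesicular zinc carrier Slc30a4 was highest in the CX3CR1- cells, with 505, 387, 733 and 979 in array order. Slc39a8, another zinc importer, reached the floor in the CX3CR1high macrophages only (174).

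The copper importer Slc31a1 was at 615 for CX3CR1high macrophages, 433 for CD11b+ cells, 256 for DCs and 368 for CX3CR1- cells. It was 2.40-fold above the DCs, but with equal medians or over both its probe sets the log2 ratio was 0.95 or 0.78. Its relative Slc31a2 was 2.02-fold above the CX3CR1- cells, at a log2 ratio of 0.98 with quantile normalization and 0.93 with equal medians. The heme carrier Slc48a1, which lets heme out of the phagolysosome in macrophages, had 447, 359.5, 250.3 and 407, within 2-fold between all populations, while its further probe set gave 396, 274, 169 and 224, 2.34-fold above the DCs. Over the CD11b+ cells, 0 of 21 metal carriers were higher and 0 lower (median log2 ratio 0.28), and over the CX3CR1- cells 3 were higher and 0 lower (median 0.39). Of a list of 12 measured zinc, copper and mitochondrial iron carriers, 0 were apart from the CD11b+ cells, 5 were higher and 0 lower than in the DCs, and 2 higher and 0 lower than in the CX3CR1- cells. Of all genes, 4.66% were higher and 5.83% lower than in the CD11b+ cells, 17.4% and 10.2% than in the DCs, and 8.56% and 6.54% than in the CX3CR1- cells.

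**Figure D4:**
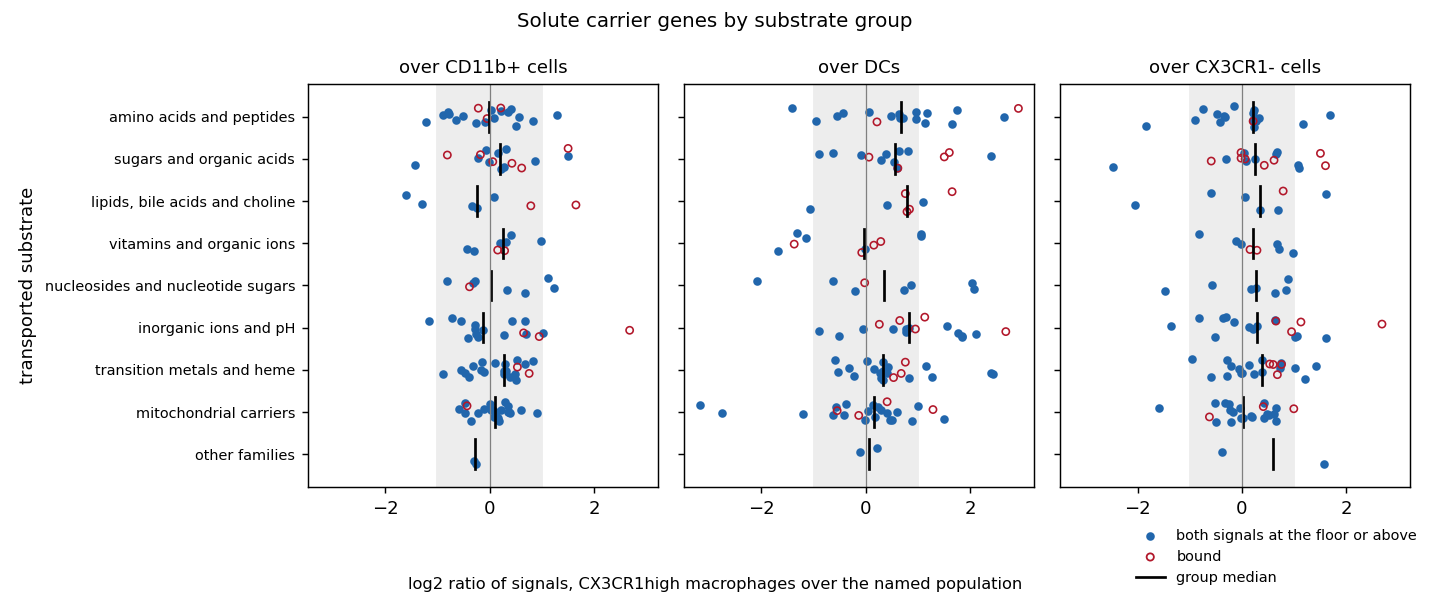
Log2 ratio of signals of the CX3CR1high macrophages over the CD11b+ cells (left), the DCs (middle) and the CX3CR1- cells (right) on the x axis, for members grouped by substrate on the y axis, with 1 point per gene, open points for bounds, a black line at each group's median and grey within 2-fold. All metal carriers lie within 2-fold over the CD11b+ cells, and over the DCs the points that lie furthest left belong to mitochondrial carriers.

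Amino acid and peptide carriers were higher among CX3CR1high macrophages than in the DCs for 6 of 18 members with a ratio (33.3%, against 17.4% of all genes) and lower for 1, with a median log2 ratio of 0.68. Over the CD11b+ cells 1 of 20 was higher and 1 lower (5% each, against 4.66% and 5.83% of all genes, median -0.01). Over the CX3CR1- cells 2 of 18 were higher and 1 lower (11.1% and 5.56%, against 8.56% and 6.54%, median 0.21). Slc7a8, a light chain that carries large neutral amino acids, was at 1234 for CX3CR1high macrophages, 965 for CD11b+ cells, 196 for DCs and 1059 for CX3CR1- cells. The 3 CD11b+ populations lay close together, and the CX3CR1high macrophages were 6.28-fold and the CX3CR1- cells 5.39-fold above the DCs. The shared heavy chain Slc3a2 had 7687 for CX3CR1high macrophages, 5777 for CD11b+ cells, 3396 for DCs and 6388 for CX3CR1- cells, 2.26-fold above the DCs, which is under 2-fold with equal medians (log2 ratio 0.87).

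The light chains did not share 1 order. Slc7a7, which exports cationic amino acids, was at 608 for CX3CR1high macrophages, 343 for CD11b+ cells, 180.0 for DCs and 269.5 for CX3CR1- cells, 3.38-fold above the DCs and 2.26-fold above the CX3CR1- cells. Slc7a6, which carries the same substrates, was highest in the DCs, at 116, 181, 309 and 129 in array order, and 2.66-fold lower in the CX3CR1high macrophages. Slc7a5, the other carrier of large neutral amino acids, had its lowest signal in the CX3CR1high macrophages, with 301, 526, 585 and 508, but was within 2-fold throughout. The glutamine carriers Slc1a5 and Slc38a1 were also lowest there, with 460.2, 852, 675 and 857 and 719.5, 1022, 972 and 1004, each within 2-fold, whereas Slc38a2, which also carries glutamine, was lowest in the DCs, at 3609, 3834, 2286 and 2874.

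Slc7a11, the light chain that imports cystine for glutathione synthesis in exchange for glutamate, was at 210.4 for CX3CR1high macrophages, 487 for CD11b+ cells, 151 for DCs and 757 for CX3CR1- cells. The CX3CR1- cells were 3.60-fold and the CD11b+ cells 2.32-fold above the CX3CR1high macrophages, and the CX3CR1- cells were 5.01-fold above the DCs. The gene has 1 probe set, and its window printed above holds both amino acid response elements. Slc6a8, the creatine carrier, ran the other way, at 781 for CX3CR1high macrophages, 318 for CD11b+ cells, 88.3 for DCs and 243 for CX3CR1- cells. It was 2.45-fold above the CD11b+ cells, 3.21-fold above the CX3CR1- cells and at least 7.59-fold above the DCs, and a further probe set gave 707, 182, 68 and 146 in array order.

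Peptide carriers of the lysosome and the surface were lowest in the DCs or level. Slc15a3, a lysosomal carrier of histidine and of bacterial muramyl dipeptide, had 6812 for CX3CR1high macrophages, 8191 for CD11b+ cells, 2169 for DCs and 8634 for CX3CR1- cells, and was 3.14-fold above the DCs. Slc15a4, which does the same in endolysosomes, was level at 305, 287, 294 and 263. The surface peptide carrier Slc15a2 was at 1062, 912, 486 and 1421, 2.18-fold above the DCs and highest in the CX3CR1- cells. The ratio of the CX3CR1high macrophages over the DCs is under 2-fold with equal medians. In the list of 11 surface amino acid carriers with a floor-level signal, over the DCs 3 of 10 were higher and 1 lower, against 0 of 11 and 1 for CD11b+ cells and 1 of 10 and 1 for CX3CR1- cells. In this order the shares of all genes were 17.4% and 10.2%, 4.66% and 5.83%, and 8.56% and 6.54%.

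Among lysosomal and endosomal carriers, 8 genes were measured. In the CX3CR1high macrophages 4 were higher and 1 lower than in the DCs (50% and 12.5%, against 17.4% and 10.2% of all genes, median log2 ratio 1.24). Against the CX3CR1- cells 3 were higher and 0 lower (37.5% and 0%, against 8.56% and 6.54%, median 0.67). Against the CD11b+ cells 1 was higher and 0 lower (12.5% and 0%, against 4.66% and 5.83%, median 0.33). Slc37a2, which acts at the endoplasmic reticulum and is described with the sugar carriers, is on this list and is among the higher genes of all 3 counts, and is the 1 over the CD11b+ cells. Slc29a3, the lysosomal nucleoside carrier whose loss in mice makes macrophages accumulate, was at 1009 for CX3CR1high macrophages, 797 for CD11b+ cells, 245 for DCs and 651 for CX3CR1- cells. Its ratio over the DCs was 4.11-fold, and a further probe set gave 209, 196, 51.5 and 149.9 in array order. Slc66a1, which lets cationic amino acids out of lysosomes, was low in the CX3CR1- cells alone, with 311, 372, 269 and 105, the last just above the floor. It is the 1 member at least 2-fold below all others there. Without probe sets ending in _s_at, _x_at or _a_at that number is 0. The CX3CR1- array also had the highest Gapdh ratio of 3' to 5' signals (3.40), whose part was not tested. The CX3CR1high macrophages were 2.97-fold above the CX3CR1- cells for Slc66a1. Slc29a1, the nucleoside carrier of the plasma membrane, was at 476 for CX3CR1high macrophages, 219 for CD11b+ cells, 114 for DCs and 259 for CX3CR1- cells, 2.18-fold above the CD11b+ cells and 4.18-fold above the DCs.

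Of the nucleotide sugar family Slc35, Slc35a2 and Slc35a5 had the widest ranges. Slc35a2, which brings UDP-galactose into the Golgi, was 2.78-fold lower among CX3CR1high macrophages than in the CX3CR1- cells (335 against 931). Over its 4 probe sets the log2 ratio was -0.16, but its further sets were under the floor or near it, with signals up to 118. Slc35a5 was highest in the CX3CR1high macrophages, at 644, 273, 351 and 357, and 2.36-fold above the CD11b+ cells. Of the 8 nucleoside and nucleotide sugar carriers that reached the floor, 2 were higher and 0 lower over the CD11b+ cells, 2 higher and 1 lower over the DCs and, of 7 with a ratio, 0 higher and 1 lower over the CX3CR1- cells. Beside these stand 4.66% and 5.83%, 17.4% and 10.2%, and 8.56% and 6.54% of all genes.

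Sugar carriers had their highest signals in different populations. Slc2a3, a high-affinity glucose carrier, was at 420.3 for CX3CR1high macrophages, 1127 for CD11b+ cells, 788 for DCs and 2321 for CX3CR1- cells. It was the sole member at least 2-fold above all others in the CX3CR1- cells, 5.52-fold above the CX3CR1high macrophages, 2.95-fold above the DCs and 2.06-fold above the CD11b+ cells. A further probe set gave 162, 440.3, 265 and 907 in array order, and both are of types that can match related sequences. The other sets of Slc2a3 were under the floor on every array, with signals up to 19.9. With the mean over probe sets, or without sets ending in _s_at, _x_at or _a_at, 0 members were 2-fold above all others in the CX3CR1- cells. Of all genes, 0.46% and 0.592% were. Slc2a8, an intracellular glucose carrier, was 2.09-fold above the CX3CR1- cells in the CX3CR1high macrophages, at a log2 ratio of 0.98 with equal medians. Slc2a1, the widespread glucose carrier, was within 2-fold, at 2959, 3447, 1962 and 2886. The ratio of 3' to 5' signals was highest on the CX3CR1- array for Gapdh (3.40) and on the CD11b+ array for Actb (3.18), and the part of RNA quality in these values was not tested.

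Slc37a2, which exchanges glucose 6-phosphate for phosphate at the endoplasmic reticulum, was at 769.8 for CX3CR1high macrophages, 273 for CD11b+ cells, 146 for DCs and 362 for CX3CR1- cells. The CX3CR1high macrophages were 2.82-fold above the CD11b+ cells, 2.13-fold above the CX3CR1- cells and 5.27-fold above the DCs. Slc13a3, a carrier of dicarboxylates such as succinate, reached 292 there and was under the floor elsewhere (90.9, 50.5 and 102), but a further probe set of a type that can match related sequences gave 718, 337, 47.1 and 519.7. The monocarboxylate carrier Slc16a7 was at 312, 171, 3.04 and 78.4 in array order, at least 3.03-fold above the DCs. Its relatives Slc16a1 (1222, 1051, 838 and 782) and Slc16a6 (948, 781, 1009.5 and 1173) were within 2-fold, and the lactate exporter Slc16a3 was at 86.8, 180.4, 52.1 and 155. Of a list of 7 measured glucose and lactate carriers, 0 were higher and 1 lower compared with CD11b+ cells, 1 of 6 and 0 with DCs, and 2 and 1 with CX3CR1- cells. Over the CD11b+ cells 2 of 16 members of the group were higher and 1 lower, over the DCs 3 of 14 higher and 0 lower, and over the CX3CR1- cells 4 of 17 higher and 1 lower. For all genes the shares were 4.66% and 5.83%, 17.4% and 10.2%, and 8.56% and 6.54% in that order.

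Ion carriers were higher among CX3CR1high macrophages than in the DCs for 7 of 17 members (41.2%, against 17.4% of all genes) and lower for 0 (against 10.2%), with a median log2 ratio of 0.83. Among the 7, Slc12a2, Slc26a2 and Slc26a3 are also on the list of colonic epithelial transport genes described below, and the part of epithelial RNA in their values was not tested. Slc12a2, which brings sodium, potassium and chloride into cells, was at 667 for CX3CR1high macrophages, 493 for CD11b+ cells, 154 for DCs and 579 for CX3CR1- cells, 4.33-fold above the DCs. The phosphate carrier Slc20a1 was at 4675 for CX3CR1high macrophages, 2931 for CD11b+ cells, 1307 for DCs and 2250.1 for CX3CR1- cells, 3.58-fold above the DCs and 2.08-fold above the CX3CR1- cells. Its relative Slc20a2 was at least 2.19-fold above the DCs by the probe set used (225, 187, 102 and 61.1 in array order), whereas a further set gave 83.1, 85.7, 171 and 131, with the DCs first. Slc26a2, a sulfate carrier, had 1275, 1487, 374 and 1047 and was 3.41-fold above the DCs.

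Carriers of magnesium and of potassium with chloride differed among the CD11b+ populations. Slc41a2, a magnesium carrier, was at 466, 288, 129 and 232 in array order, 3.60-fold above the DCs. Slc41a1, which also carries magnesium, was highest in the CX3CR1- cells, at 489, 648, 910.0 and 1260.2, and 2.58-fold lower in the CX3CR1high macrophages. Slc12a7, a potassium and chloride exporter, was at 1042 for CX3CR1high macrophages, 514 for CD11b+ cells, 353 for DCs and 342 for CX3CR1- cells. It was 2.03-fold above the CD11b+ cells by the probe set used, with a log2 ratio of 0.72 over both its sets. The further set was near or under the floor, at 111, 82.7, 72.1 and 26.5 in array order. The sodium, calcium and potassium exchanger Slc24a3 was 2.23-fold lower than in the CD11b+ cells (123 against 274). Over the CD11b+ cells 2 of 17 ion carriers were higher and 1 lower (11.8% and 5.88%, against 4.66% and 5.83% of all genes). Over the CX3CR1- cells 5 were higher and 1 lower (29.4% and 5.88%, against 8.56% and 6.54%).

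The 9 members at least 2-fold below all others in the DCs were Slc11a2, Slc12a2, Slc15a3, Slc26a2, Slc29a3, Slc39a14, Slc44a1, Slc6a8 and Slc7a8. Their share among the members, 7.14%, was near that of all genes, 8.03%. On the same arrays the summed macrophage genes ran from 60831 to 141145 in the CD11b+ populations against 8985 in the DCs. The fibroblast and endothelial genes ran from 16067 to 61678 against 5128, and 4 of the 9, Pdgfra, Pdgfrb, Pecam1 and Cdh5, were under the floor in the DCs. The part of either in the members' values was not tested.

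Some transport genes known from colonic epithelium reached the floor on the CX3CR1high array alone. Slc26a3, which exchanges chloride for bicarbonate at the surface of colonocytes, had 660.3 for CX3CR1high macrophages, 37.8 for CD11b+ cells, 26.6 for DCs and 42.7 for CX3CR1- cells. It was at least 6.42-fold above each other population, and its further probe set gave 696, 20.1, 38.2 and 19.97 in array order. Slc44a4, which in human colon takes up thiamine pyrophosphate, was at 324, 36.1, 64 and 106, and so also just reached the floor on the CX3CR1- array. It was at least 3.15-fold above the CD11b+ cells, and 3.06-fold above the CX3CR1- cells. The peptide carrier Slc15a1 and the glucose carrier Slc5a1, both of the brush border, reached the floor there only, just above it, at 119 and 107.

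Of the 17 listed epithelial transport genes 11 were on the array and 6 reached the floor. Among these 6, 2 were higher and 0 lower compared with CD11b+ cells (against 4.66% and 5.83% of all genes). Compared with DCs, Slc12a2, Slc26a2, Slc26a3 and Slc44a4 were higher and 0 lower (against 17.4% and 10.2%), and with CX3CR1- cells 2 and 0 (against 8.56% and 6.54%). The remaining 5, Slc3a1, Slc4a4, Slc5a8, Slc6a14 and Slc13a2, were under the floor on every array, with signals up to 82.6. Of the 11 measured epithelial genes 10 were highest on the CX3CR1high array. Among them were Krt8 (6182, 932, 1192 and 2530.4 in array order), Lgals4 (2790.4, 397, 435 and 668) and Krt20 (569.8, 31.3, 53.7 and 56). Cdh1 was highest on the CX3CR1- array (640, 143, 496 and 800). All 11 measured epithelial genes were at least 2-fold higher among CX3CR1high macrophages than in the CD11b+ cells, 8 exceeded the DCs and 7 the CX3CR1- cells that far, and Krt20 and Vil1 were under the floor in the other 3 populations. Their part in the transporter values was not tested. Without the epithelial transport list, 4 of 120 members in place of 6 of 126 were at least 2-fold above all others in the CX3CR1high macrophages. They were Slc13a3, Slc6a8, Slc37a2 and Slc12a7, beside 2.91% of all genes.

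Further probe sets of the members called over the CD11b+ cells numbered 6 with a ratio, and 6 had the same sign and 5 were at least 2-fold the same way. Over the DCs 19 of 20 had the same sign and 11 reached 2-fold, and over the CX3CR1- cells 11 of 12 and 6. The number at least 2-fold the opposite way was 0 in each. Of the 236 members 146 have a single probe set and no such check.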

How the data were processed

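RNA from 4 sorted populations was labelled for Affymetrix 3' arrays from 100 ng each, per the labels' protocols, with 1 array per population. The deposited values are signal intensities from the authors' use of MAS5, which the submitters' processing notes name, in a version not given in the sources used here. The mean with 2% trimmed from each end was 500.3 on all 4 arrays, so the authors' scaling was kept. Detection calls were not used here. Probe sets were named by the platform's annotation of 2016, and all 236 members were found in RefSeq by Entrez number with 0 symbols changed. For each gene the set brightest on average over the 4 arrays (log2) was taken, preferring sets not ending in _x_at. Ratios, floor and limit are as given above.

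Named genes were, per population, the members set furthest apart, in each main comparison the 8 largest ratios per direction, the 2 widest members per substrate group, and genes of 6 lists (lysosomal, surface amino acid, glucose and lactate, colonic epithelial, zinc, copper and mitochondrial iron, erythroid), those without values being covered by the counts. Slc15a2, Slc19a1, Slc20a1, Slc20a2, Slc22a4, Slc23a2, Slc25a3, Slc25a5, Slc25a15, Slc27a1, Slc41a2, Slc44a1 and Slc52a3 were named after their values were seen. Counts below all others were added after seeing the data. The members and lists were chosen with earlier results of these data known. With 1 array per population no test was made. Tried were 6 alternatives and 1 added. Data of 12393 genes were also simulated from the CX3CR1high array and added noise, with 200 genes changed by 1.5 on the log2 scale. The 200 were drawn only from genes with a signal of at least 8 times the floor, which most members do not reach. Of them 97.5%, 92.5% and 87.5% were called in the 3 comparisons, and 0.227%, 0.706% and 1.38% of unchanged genes. These shares say nothing of changed genes with weaker signals. Work was done with Python 3.11.15, numpy 2.4.6 and pandas 2.3.3.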

Additional observations from a re-analysis of the deposited data

How the results depend on the processing

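No paired analysis was possible because each population has 1 array. Of 98 recounts of the 14 member counts under 7 settings, 72 stayed within 1.5 times. With the floor at the 25th percentile, members higher and lower over the CD11b+ cells were 21 and 9 of 186. Over the DCs 51 of 181 were higher, and over the CX3CR1- cells 33 of 184 were higher and 11 lower. The shares of all genes were 6.76% and 7.9%, 19.8%, and 10.3% and 7.63% in that order. Of 193 members, 13 (CX3CR1high), 1 (CD11b+) and 2 (CX3CR1-) were above all others, against 3.21%, 2.76% and 0.749% of all genes. Below all others were 3 (CD11b+), 14 (DCs) and 2 (CX3CR1-), against 0.822%, 9.4% and 0.484%. With the floor at the 75th percentile, fewer genes have a ratio. Higher and lower counts were then 1 and 1 of 56 over the CD11b+ cells (3.71% and 4.2% of all genes). They were 13 and 4 of 59 over the DCs (13.8% and 9.68%) and 3 and 4 of 55 over the CX3CR1- cells (7.05% and 6.38%). In the last, higher calls were 42.9% of all member calls in place of 72.7%, and 52.5% of the calls among all genes in place of 56.7%. At this floor 1 (CX3CR1high) and 4 (DCs) of 62 members were above all others, against 2.38% and 4.01% of all genes. Below all others were 4 (DCs) and 0 (CX3CR1-), against 5.29% and 0.0662%. With equal medians 1 of 126 members was below all others in the CX3CR1high macrophages (1.08% of all genes). With the mean over probe sets, 3 of 102 members were lower over the CD11b+ cells (5.33% of all genes). Of 105, 0 were above all others in the CX3CR1- cells (0.46%) and 1 below in the CD11b+ cells (0.251%). Without shared probe set types (_s_at, _x_at and _a_at), 0 of 99 members were above and 0 below all others in the CX3CR1- cells (0.592% and 0.24% of all genes). The cause was not tested. The 2-fold ratios of members named by rule or list were followed through the 6 planned settings. Genes named after their values were seen were left out. Of the ratios followed, 0 reversed. With the higher floor 25 of 46 fell under 2-fold, among them Slc26a3, Slc6a8, Slc37a2, Slc7a11, Slc22a5 and Slc33a1. The number was 6 of 62 with equal medians, 3 of 62 with quantile normalization and 6 of 56 with the mean over probe sets. It was 0 of 62 with the lower floor and 0 of 45 without shared types. Slc20a2, which was left out, changes direction without shared types. Its remaining probe set puts the CX3CR1high macrophages below the DCs (log2 ratio -0.73) and below the CX3CR1- cells (-0.35), both as bounds. The set used gave 1.13 in each case. Signals under the floor of 103 set no order between populations.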
